A study of Mus musculus with 12 samples.

Results

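The genes of the pre-B cell receptor and of immunoglobulin gene rearrangement were followed through an RNA sequencing series of sorted mouse hematopoietic stem cells. The 10 genes were Igll1, Vpreb1 and Vpreb3 (surrogate light chain and its relative), Cd79a and Cd79b (signalling chains), Blnk (adaptor), Rag1, Rag2 and Dntt (recombination enzymes) and Mzb1 (chaperone). They were chosen by name, as the rows of the deposited expression table whose Ensembl identifier maps to these symbols, and all 10 were found among 35275 genes. The values are FPKM, fragments counted per kilobase and per depth, so that levels are compared between genes per length.

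The cells came from C57BL/6 mice, and each of 4 groups had 3 libraries. Untreated wild type (Thpo+/+) and untreated knockout (Thpo-/-, no thrombopoietin) were the first pair, and the other pair was the same genotypes after 10 days of Romiplostim, an agonist of the thrombopoietin receptor given intravenously at 100 µg/kg per day. The treatment protocol names PBS for controls, whereas the sample labels call them untreated. The labels call every sample primary hematopoietic stem cells and give no sorting markers, age or sex. Each group was sequenced in a run of its own, so that a difference between runs and one between groups cannot be told apart. Nothing in the labels says that replicates came from separate animals, and the p-values then rest on a spread between samples that may be technical.

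A B cell precursor first cuts and joins its immunoglobulin heavy chain gene segments. RAG1 and RAG2 together make the cuts at recombination signal sequences, and terminal deoxynucleotidyl transferase, encoded by Dntt, adds untemplated nucleotides at the joints. The heavy chain is then tested in the pre-B cell receptor, in which λ5 (Igll1) and VpreB (Vpreb1, Vpreb2) stand in for a light chain and CD79A and CD79B carry the signal through the membrane to the kinase SYK and the adaptor BLNK. In bone marrow these genes are known as a signature of pro-B and pre-B cells, with Dntt and the Rag genes also on in early lymphoid progenitors and in thymocytes.

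The 250 bases before the RefSeq start were searched for motifs in 8 members. Sequence is shown for the 3 of these whose window holds a searched motif and touches no exon of GENCODE M21. These genes carry the receptor and the recombinase and moved together in the data. The windows are Igll1 at chr16:16863986-16864235 (minus strand), Rag1 at chr2:101649533-101649782 (minus strand) and Rag2 at chr2:101624462-101624711 (plus strand), from RefSeq on GRCm38.p6, read 5′ to 3′ toward the gene. Capitals mark matches on either strand to CCCNNGGG (EBF1 core), CAGCTG and CAGGTG (E2A boxes), TGGGAA (Ikaros core) and GAGGAA (PU.1 core).
Igll1 upstream: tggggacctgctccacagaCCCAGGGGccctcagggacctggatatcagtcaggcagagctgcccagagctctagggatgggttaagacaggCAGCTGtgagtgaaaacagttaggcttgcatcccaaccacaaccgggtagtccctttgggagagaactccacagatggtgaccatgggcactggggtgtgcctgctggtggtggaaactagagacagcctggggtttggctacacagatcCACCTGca
Rag1 upstream: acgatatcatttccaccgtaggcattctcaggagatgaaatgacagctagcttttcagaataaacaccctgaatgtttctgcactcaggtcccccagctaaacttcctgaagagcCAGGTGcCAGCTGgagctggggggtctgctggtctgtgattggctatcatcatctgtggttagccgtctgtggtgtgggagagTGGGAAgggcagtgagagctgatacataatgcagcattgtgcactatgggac
Rag2 upstream: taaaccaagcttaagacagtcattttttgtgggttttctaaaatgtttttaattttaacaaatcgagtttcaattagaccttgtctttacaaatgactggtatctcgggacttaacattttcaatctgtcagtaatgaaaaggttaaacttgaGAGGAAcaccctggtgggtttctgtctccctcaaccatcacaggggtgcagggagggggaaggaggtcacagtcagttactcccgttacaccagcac
In Igll1 the EBF1 core lies at −231 to −224 from the start, CAGCTG at −158 to −153 and CAGGTG, on the reverse strand, at −8 to −3. Rag1 holds CAGGTG at −135 to −130, CAGCTG at −128 to −123 and TGGGAA at −52 to −47, and Rag2 holds GAGGAA at −97 to −92. Of the 10 members 8 have an entry in the promoter table, and Cd79b and Mzb1 are only named here. CAGGTG was found in 5 of these 8 windows (Blnk, Cd79a, Igll1, Rag1, Vpreb1) and in 17.2% of all 32851 windows of the same length, and CAGCTG in 2 of 8 against 13%. The EBF1 core was found in 1 of 8 against 11.8%, TGGGAA in 1 against 21.6%, GAGGAA in 3 (Cd79a, Rag2, Vpreb1) against 23.3%, and the FOXO sequence TGTTTAC in 0 against 3.17%. A match describes the letters of the window and is not a measured binding site.

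The recovered depth was 27.7 to 35.5 M fragments per library, and 11262 to 12374 genes reached an FPKM of 1. Thpo itself was listed at 0 in all 6 knockout libraries and in 4 of the 6 wild-type libraries, and at 0.0208 and 0.0426 FPKM in the other two, about the level of 3 fragments, so it does not check the genotype labels. Stem cell markers were present in all libraries and lowest in untreated knockout. The summed FPKM of 10 such genes was 1597 to 2220 in untreated wild type, 1476 to 1895 in treated wild type, 528 to 731 in untreated knockout and 1020 to 1684 in treated knockout. Sex-linked genes differed between libraries of a group. In wild type, untreated replicate 2 and treated replicate 1 had Xist at 40.2 and 20.9 FPKM and Y-linked means of 0.137 and 0.0221. The other wild-type libraries had Y-linked means of 18.5 to 23.2 FPKM and Xist of at most 0.203. Y-linked genes had a mean of 11.3 to 24.9 FPKM in the 3 untreated knockout libraries and at most 0.0389 in the 3 treated ones, whereas Xist was 20.1 to 41.3 FPKM in the treated ones. Untreated knockout replicates 1 and 3 showed both Y-linked RNA (14.7 and 11.3) and Xist (4.91 and 8.7). In knockout, sex-linked RNA and treatment therefore cannot be told apart.

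In untreated wild-type cells 7 of the 10 members had means of 1.31 to 7.22 FPKM, Rag2 (0.184) and Rag1 (0.0199) were lower still, and Cd79b stood apart at 68.1 ± 5.32 FPKM (mean ± SD, n = 3 in every group). All were far higher in untreated knockout, and all were lower again in knockout given Romiplostim. The plot of the members by library shows the same stair in each panel, with wild type at the bottom, untreated knockout at the top and treated knockout between them except for Cd79b.

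**Figure D1:**
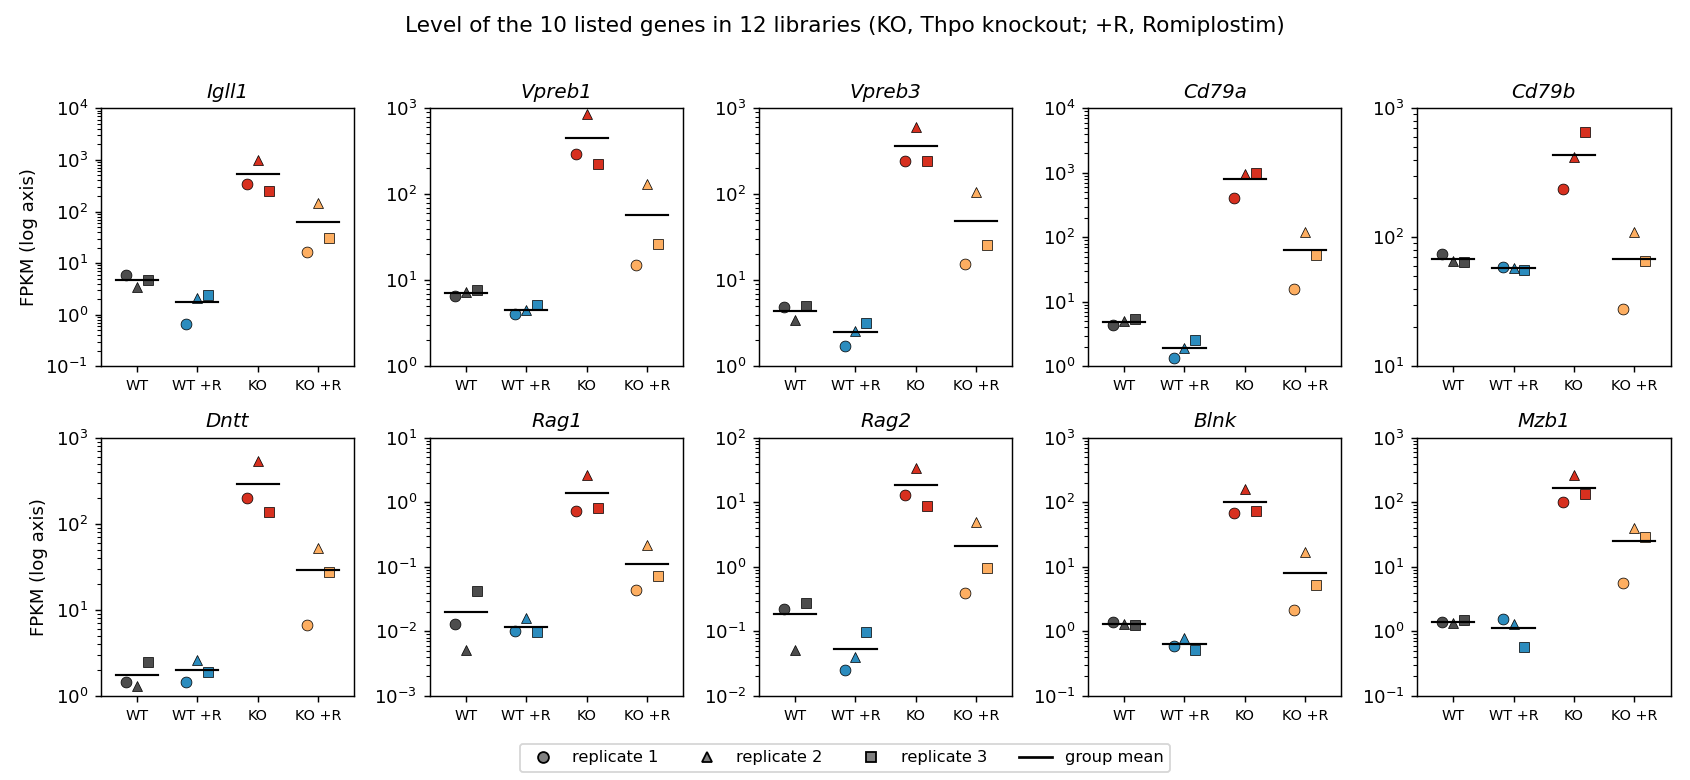
Level of each of the 10 genes in each of the 12 libraries (FPKM, log axis, each panel with its own range), by group, with 3 points per group for the replicates and a bar at the mean. The untreated knockout libraries lie above all wild-type libraries for all 10 genes, and the treated knockout libraries lie between for 9 of them and across the wild-type range for Cd79b.

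Igll1 (ENSMUSG00000075370, mm10 chromosome 16, 16860671 to 16863985, minus strand) encodes λ5, the constant-like portion of the surrogate light chain. Its FPKM was 5.98, 3.49 and 4.70 in untreated wild type, 0.663, 2.06 and 2.46 in treated wild type, 342, 1008 and 246 in untreated knockout and 16.4, 143 and 31.0 in treated knockout. Within each genotype every treated library was below every untreated one, and every knockout library was above every wild-type one. The mean was 113 times higher in untreated knockout than in untreated wild type (log2 difference of FPKM + 1 of 6.29 ± 0.68 SE, adjusted p = 4.12e-05, limma). In knockout the untreated mean was 8.37 times the treated one (log2 difference for Romiplostim −3.35 ± 0.68, adjusted p = 0.00421).

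Vpreb1 (ENSMUSG00000059305, chromosome 16, 16868403 to 16870843, minus strand), the variable-like portion, lies 4.4 kb upstream of Igll1 with no annotated gene between them. It was at 6.56, 7.33 and 7.76 FPKM in untreated wild type, 4.01, 4.54 and 5.11 in treated wild type, 293, 849 and 226 in untreated knockout and 14.9, 132 and 26.4 in treated knockout. As with Igll1, no 2 groups overlapped and replicate 2 was the highest library of both knockout groups. The log2 difference was 5.55 ± 0.65 for untreated knockout against wild type (adjusted p = 6.26e-05, limma) and −3.31 ± 0.65 for Romiplostim in knockout (adjusted p = 0.00335). Its near copy Vpreb2 has a transcript 97.36% identical over 759 aligned bases, so reads of the pair may be divided between them. Vpreb2 was at 66.3, 154 and 42.1 FPKM in untreated knockout and 0.956 to 1.36 in untreated wild type. Vpreb1 exons also overlap those of Top3b on the other strand, and the library kit does not mark strand. Top3b was at 54.9 ± 2.06 FPKM in wild type and 75 ± 11.5 in knockout without treatment, so the wild-type level of Vpreb1 is the less certain one.

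Vpreb3 (ENSMUSG00000000903, chromosome 10, 75943057 to 75949657, plus strand), a related protein that binds the heavy chain early in its assembly, gave 4.87, 3.48 and 4.97 FPKM in untreated wild type. Treated wild type had 1.70, 2.60 and 3.23, untreated knockout 242, 604 and 241, and treated knockout 15.4, 105 and 26.0. No 2 groups overlapped. The difference between untreated genotypes was 5.93 ± 0.56 on the log2 scale (adjusted p = 1.98e-05, limma), and that of Romiplostim in knockout −3.19 ± 0.56 (adjusted p = 0.00191).

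Cd79a (ENSMUSG00000003379, chromosome 7, 24897381 to 24902197, plus strand) encodes Igα, a signalling chain with a tyrosine-based activation motif. It was at 4.43, 4.97 and 5.45 FPKM in untreated wild type, 1.33, 1.95 and 2.54 in treated wild type, 406, 960 and 1011 in untreated knockout and 15.9, 122 and 52.9 in treated knockout. No 2 groups overlapped, and the highest untreated knockout library was replicate 3, not replicate 2 as for the surrogate light chain. The log2 difference of 6.95 ± 0.56 between the untreated genotypes was the largest of the 9 members tested (adjusted p = 8.58e-06, limma). Romiplostim in knockout gave −3.93 ± 0.56 (adjusted p = 0.000568).

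Cd79b (ENSMUSG00000040592, chromosome 11, 106311341 to 106314762, minus strand), the partner chain Igβ, departed from the others in its wild-type level. Its FPKM was 74.3, 65.2 and 64.9 in untreated wild type, 58.5, 58.0 and 56.2 in treated wild type, 239, 417 and 652 in untreated knockout and 28.0, 111 and 66.0 in treated knockout. Untreated knockout was 6.40 times higher than untreated wild type (log2 difference 2.55 ± 0.42, adjusted p = 0.00058, limma), the smallest difference of the 9. Treated knockout straddled both wild-type groups: replicate 1 was below all 6 wild-type libraries and replicate 2 above them. Romiplostim in knockout gave −2.74 ± 0.42 (adjusted p = 0.00088). The ratio of Cd79a to Cd79b per library was 0.0596 to 0.0839 in untreated wild type and 0.0228 to 0.0452 in treated wild type, against 1.55 to 2.30 in untreated knockout and 0.568 to 1.10 in treated knockout. The ranges of these 4 groups did not overlap.

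Blnk (ENSMUSG00000061132, chromosome 19, 40928927 to 40994535, minus strand) encodes the adaptor that couples SYK to phospholipase C and BTK. It was at 1.39, 1.29 and 1.26 FPKM in untreated wild type, 0.594, 0.798 and 0.521 in treated wild type, 68.1, 159 and 72.9 in untreated knockout and 2.17, 16.8 and 5.15 in treated knockout. No 2 groups overlapped. The log2 differences were 5.34 ± 0.49 for knockout without treatment (adjusted p = 1.76e-05, limma) and −3.73 ± 0.49 for Romiplostim in knockout (adjusted p = 0.000353).

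Dntt (ENSMUSG00000025014, chromosome 19, 41029275 to 41059525, plus strand) begins 34.7 kb from the start of Blnk, with no gene between them. Its FPKM was 1.45, 1.29 and 2.51 in untreated wild type, 1.46, 2.60 and 1.90 in treated wild type, 199, 546 and 136 in untreated knockout and 6.69, 52.6 and 27.7 in treated knockout. The wild-type groups overlapped here, and both knockout groups lay above them. Knockout without treatment had the highest ratio of means of the 10 members, 168 (log2 difference 6.51 ± 0.62, adjusted p = 2.06e-05, limma). Romiplostim in knockout gave −3.43 ± 0.62 (adjusted p = 0.00222).

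Rag2 (ENSMUSG00000032864, chromosome 2, 101624718 to 101632529, plus strand) was at 0.226, 0.0517 and 0.273 FPKM in untreated wild type, 0.0250, 0.0400 and 0.0974 in treated wild type, 12.8, 34.6 and 8.94 in untreated knockout and 0.396, 4.93 and 0.977 in treated knockout. The wild-type groups overlapped, and all knockout libraries lay above them. A count of 3 fragments corresponds to 0.0247 to 0.0317 FPKM for this gene, a level that 1 treated wild-type library did not reach. The log2 difference of 3.85 ± 0.50 between untreated genotypes (adjusted p = 0.000134, limma) understates the ratio, since 1 is added to each value. Romiplostim in knockout gave −2.74 ± 0.50 (adjusted p = 0.00246).

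Rag1 (ENSMUSG00000061311, chromosome 2, 101638282 to 101649501, minus strand) faces Rag2 at a distance of 5.8 kb and was the lowest of the 10. In untreated wild type its values stand for about 3, 1 and 8 fragments, and in treated wild type for about 2, 3 and 2. Untreated knockout had 0.725, 2.64 and 0.808 FPKM, or about 145, 559 and 153 fragments, and treated knockout 0.0437, 0.221 and 0.0723 FPKM, or about 8, 52 and 15. Every untreated knockout library was thus above every other library, and the lowest treated knockout library lay just above the highest wild-type one (0.0416). Rag1 reached an FPKM of 1 in a single library and was not among the genes tested. With no filter on low values, which tests 26521 genes, its difference was 1.14 ± 0.22 between untreated genotypes (adjusted p = 0.00451, limma) and −1.02 ± 0.22 for Romiplostim in knockout (adjusted p = 0.0143). Exons of B230118H07Rik overlap both Rag genes. That gene went the other way, at 79.3 ± 2.59 FPKM in wild type and 36.1 ± 1.62 in knockout without treatment.

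Mzb1 (ENSMUSG00000024353, chromosome 18, 35647267 to 35649367, minus strand) encodes a protein of the endoplasmic reticulum that aids immunoglobulin assembly. It was at 1.38, 1.36 and 1.48 FPKM in untreated wild type, 1.53, 1.32 and 0.569 in treated wild type, 101, 267 and 135 in untreated knockout and 5.58, 40.0 and 29.0 in treated knockout. The wild-type groups overlapped and both knockout groups were above them. The log2 difference was 6.01 ± 0.56 without treatment (adjusted p = 1.8e-05, limma), and −2.95 ± 0.56 for Romiplostim in knockout (adjusted p = 0.00289). Its exons overlap those of Spata24 on the same strand, which was at 29.8 ± 4.41 FPKM in wild type and 26.3 ± 1.66 in knockout without treatment.

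The untreated genotypes were compared first, to see which members differ where thrombopoietin is missing. Of the members, 9 of 10 could be tested and all 9 rose in knockout, where 22.1% of the 12823 tested genes were higher and 23% lower. Of the 9, 8 reached an FPKM of 1 in all untreated wild-type libraries, while Rag2 passed the filter through knockout libraries alone, so its difference is in part a matter of selection. All 10 members had every untreated knockout library above every untreated wild-type library, which held for 27.2% of tested genes. The members' median log2 difference was 5.93, beside −0.0292 over all tested genes. All 9 calls held without any one library and under each other pseudocount, scaling and filter tried. They also held with the Y-linked level as a covariate. That level spread most within the wild-type groups, where most members were low, so this fit says little of a sex-linked difference in knockout cells. In bulk RNA, more cells of a type and more RNA per cell cannot be told apart.

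Romiplostim in knockout was compared next, a contrast that shares the untreated knockout libraries with the first. All 9 tested members fell, where 18.9% of tested genes were lower and 10.7% higher, and 10 of 10 had every treated library below every untreated one (24.7% of tested genes). Rag2 was tested only because of the untreated knockout libraries, which also bears on its fall. Mean levels fell 6.39-fold (Cd79b) to 12.5-fold (Cd79a). The members' median was −3.31, beside −0.087 over all genes. Among all calls of this contrast 36.3% were upward, against 47.4% under median-of-ratios scaling and 58.2% under quantile normalization, which moved the median of all genes to 0.0704. The members' count of 9 was the same under both scalings. With the Y-linked level of each library as a covariate, an alternative chosen after seeing the data, 4 of 9 members remained below the threshold for adjusted p; Igll1 (−2.52, adjusted p = 0.112), Vpreb1, Vpreb3, Dntt and Rag2 did not pass.

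The treated knockout did not reach the wild-type level for most members. All 3 treated knockout libraries lay above all 3 untreated wild-type libraries for 9 of 10 members (8.98% of tested genes), and above all 3 treated wild-type libraries for the same number (9.94%), with Cd79b as the exception in both. Against treated wild type the test called 5 of 9 members higher, where 0.632% of tested genes were higher and 0.741% lower. They were Igll1 (4.05 ± 0.68, adjusted p = 0.0161), Cd79a (4.05 ± 0.56, adjusted p = 0.00644), Vpreb3 (3.39 ± 0.56), Mzb1 (3.26 ± 0.56) and Dntt (2.95 ± 0.62, adjusted p = 0.0427). Vpreb1 (2.81, adjusted p = 0.0595), Blnk (2.10, adjusted p = 0.0637) and Rag2 (1.27, adjusted p = 0.198) did not pass, and Cd79b differed by 0.04 (adjusted p = 0.97). These calls depend on single libraries and on the processing. 1 member passed without any one treated wild-type replicate and 3 without treated knockout replicate 3. With no filter on low values 1 member passed, as it did with only the groups compared, and 0 of 9 passed with the Y-linked covariate.

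In wild type, Romiplostim moved no member past the threshold (limma, 0 of 9 tested, and 0 at an unadjusted p under 0.05), where 0.866% of tested genes were higher and 0.975% lower. The log2 differences ran from −1.11 (Igll1) to 0.13 (Dntt), and 8 of 9 were below 0. For 6 of 10 members every treated library was below every untreated one (16.5% of tested genes), namely Igll1, Vpreb1, Vpreb3, Cd79a, Cd79b and Blnk. Cd79a (−1.03) and Vpreb1 (−0.57) passed when only these 6 libraries were fitted, with adjusted p = 0.0186 and 0.0466. In these groups the replicate numbers were taken to pair the samples, by the check of correlations. Sex-linked RNA did not match within numbers 1 and 2. The Y-linked mean was 22.5 FPKM in untreated and 0.0221 in treated replicate 1, and 0.137 and 18.5 in replicate 2. What a number shares is therefore not known. A blocked fit rests on a pairing drawn from these same values, so its calls are no separate support for a fall. With the replicate as a block in these 6 libraries, a fit added after seeing the data, Cd79a (adjusted p = 0.00609), Vpreb1 (adjusted p = 0.0183) and Blnk (−0.50, adjusted p = 0.0446) passed among 8 tested members, and 1396 genes in all. With the block in the fit of all 12 libraries 0 of 9 members and 199 genes passed.

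The interaction is the Romiplostim difference in knockout minus that in wild type. It was below 0 for all 9 tested members and past the threshold for 7, where 10% of tested genes were lower and 5.53% higher. Of those calls 35.5% were upward, against 55.5% under quantile normalization. Dntt had the largest size (−3.56 ± 0.88, adjusted p = 0.0204, limma), followed by Blnk (−3.23 ± 0.70, adjusted p = 0.0122). Igll1 (−2.24, adjusted p = 0.135) and Vpreb1 (−2.74, adjusted p = 0.0628) did not pass. Rag2 (−2.58) was among the 7, with the limit on its selection given above. Since 1 is added to each value, wild-type differences of low members are understated, which bears on their interaction. Leaving out 1 library left between 2 and 9 members past the threshold, and no member passed with the Y-linked covariate.

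**Figure D2:**
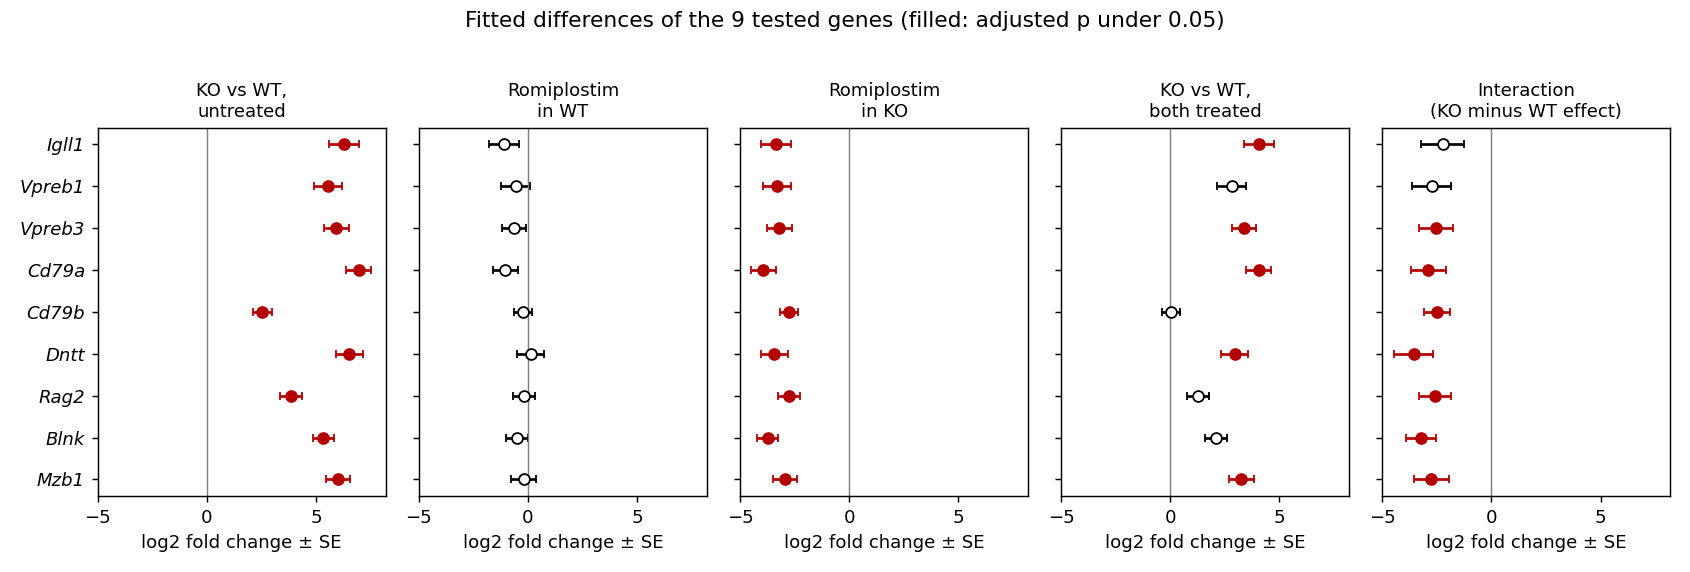
Log2 difference of FPKM + 1 with its standard error for each of the 9 tested members in the 5 contrasts, with filled points for an adjusted p under 0.05. The untreated knockout contrast lies between 2.55 and 6.95, Romiplostim in knockout between −3.93 and −2.74, and Romiplostim in wild type between −1.11 and 0.13.

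Per length, the order of the members differed between genotypes. In untreated wild type Cd79b came first, then Vpreb1 (7.22 ± 0.61 FPKM), and neither overlapped with its neighbours. Cd79a (4.95 ± 0.51), Igll1 (4.72 ± 1.25) and Vpreb3 (4.44 ± 0.83) overlapped in turn, as did Dntt (1.75), Mzb1 (1.41) and Blnk (1.31) below them, and Rag2 (0.184) and Rag1 (0.0199) came last. In untreated knockout the order was Cd79a (792 ± 335), Igll1 (532 ± 415), Vpreb1 (456 ± 342), Cd79b (436 ± 207), Vpreb3 (363 ± 209), Dntt (293 ± 221), Mzb1 (167 ± 88.2) and Blnk (100 ± 51.1). All these neighbours overlapped within their spread. Rag2 (18.8 ± 13.8) and Rag1 (1.39 ± 1.08) were each below every library of the gene before them.

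The 2 chains of the surrogate light chain kept close ratios across knockout libraries although their levels ranged widely. The ratios of Rag2 to Rag1 and of Cd79a to Cd79b were less close. Igll1 stood to Vpreb1 at 1.09 to 1.19 in untreated and 1.09 to 1.18 in treated knockout, but at 0.476 to 0.913 in untreated and 0.165 to 0.481 in treated wild type. Vpreb1 stood to Vpreb2 at 4.41 to 5.61 over the 6 knockout libraries. The ratio of Rag2 to Rag1 spread from 11.1 to 17.7 in untreated and from 9.07 to 22.3 in treated knockout, and that of Cd79a to Cd79b shifted between these groups, as given above. Rag1 stood for about 8, 52 and 15 fragments in treated knockout, so counting error alone spreads its ratio there. Rag2 was 0.0344 to 0.0376 of Igll1 in untreated knockout and 0.0241 to 0.0344 in treated knockout. Dntt was 0.541 to 0.581 of Igll1 in untreated knockout and spread to between 0.367 and 0.892 with treatment. These are ratios within libraries, given as a description.

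The 3 untreated knockout libraries differed among themselves. For 8 of 10 members replicate 2 was the highest, at 1.59 to 1.90 times the group mean, and for Cd79a and Cd79b it was replicate 3, at 1.28 and 1.5 times. Igll1 was 4.10 times higher in replicate 2 than in replicate 3, and Dntt 4.02 times, whereas Cd79b was 0.639 times as high. Among marker genes, Ms4a1 (CD20), Fcmr, Cd22, Fcrla, Fcer2a and Cr2 of mature B cells were highest in replicate 3, at 2.06 to 2.30 times their mean. Of 7 markers of B cell precursors, Ebf1, Il7r, Lef1, Cecr2 and Akap12 were highest in replicate 2, whereas Pax5 (1.15 times its mean in replicate 2 and 1.29 in replicate 3) and Cd24a (1.02 and 1.15) were highest in replicate 3. In treated knockout all 10 members were highest in replicate 2 and lowest in replicate 1, with ratios between them of 3.95 (Cd79b) to 12.4 (Rag2). Replicate 2 was not highest for the members alone there. Among the mature B cell markers Ms4a1, Fcmr, Fcrla and Fcer2a were also highest in it, while Cd22 was highest in replicate 3 and Cr2 in replicate 1. The precursor markers were highest in replicate 2 too, all but Cd24a (replicate 1). Each of these is a single library, and the part of cell composition in this spread was not tested.

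**Figure D3:**
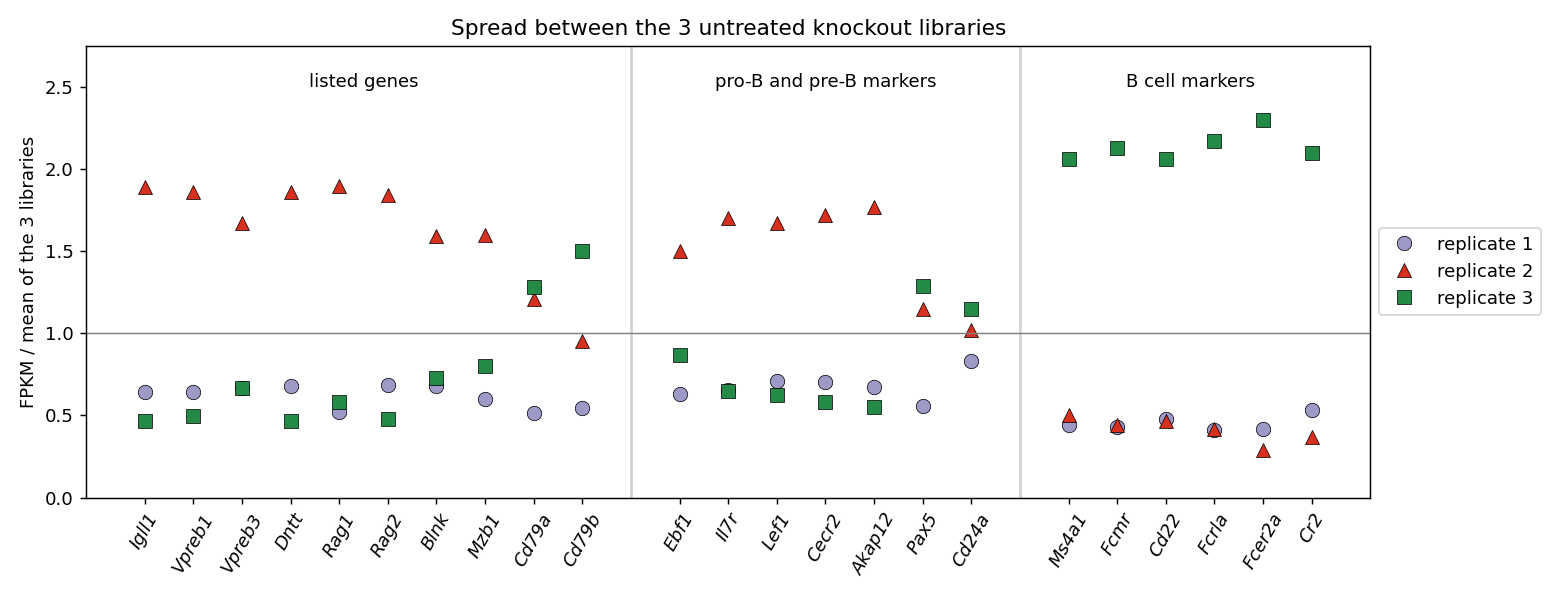
FPKM in each of the 3 untreated knockout libraries divided by their mean (vertical axis), for the 10 members, 7 markers of B cell precursors and 6 markers of mature B cells, with 1 symbol per replicate. Replicate 2 is highest for 8 members and 5 of the 7 precursor markers, while replicate 3 is highest for Cd79a, Cd79b, Pax5, Cd24a and the 6 mature B cell markers shown.

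Partners of the receptor were higher in untreated knockout, and only some of them fell with Romiplostim. Of the partner list, Vpreb2, Ighm (the µ heavy chain), Igkc and Iglc2 (light chain constant regions) were tested. All 4 rose in untreated knockout, Ighm from 6.05 ± 0.36 to 1676 ± 598 FPKM (7.84 ± 0.97, adjusted p = 9.4e-05, limma) and Vpreb2 by 5.19 ± 0.58. After Romiplostim Vpreb2 (−3.17) and Ighm (−3.21, adjusted p = 0.0277) fell in knockout, while Igkc and Iglc2 did not pass. Knockout libraries held Igkc at a mean of 6039 FPKM without treatment and 9315 after it, where single libraries ran from 1223 to 24770. The wild-type means were 58.6 and 936, a difference that did not pass either. Vpreb2 passed the filter through knockout libraries alone. Iglc2 alone was called higher in treated knockout than in treated wild type (214 ± 189 against 2.78 ± 2.13 FPKM, adjusted p = 0.0407), and Vpreb2 alone passed in the interaction (−2.75).

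Of 22 signalling genes downstream of the receptor, 13 rose and 1 fell in untreated knockout, and 17 fell and 0 rose with Romiplostim in knockout. Their median log2 difference was 0.89 without treatment and −0.988 with it, well short of the members' medians of 5.93 and −3.31. The SRC-family kinase Blk rose by 3.77 ± 0.38, the inhibitory receptor Cd22 by 4.03 ± 0.42 and the protein kinase C isoform Prkcb by 3.31 ± 0.32, all with adjusted p of at most 3.3e-05. Blk and Cd22 passed the filter through the untreated knockout libraries alone, so that their difference is in part a matter of selection. Dapp1, an adaptor that binds membrane phosphoinositides, fell by 0.75 and is named here after its value was seen. With Romiplostim in knockout Prkcb fell by 3.08 and Pik3ap1, an adaptor of phosphoinositide 3-kinase, by 2.30. In the interaction 13 of 22 were lower, in wild type 0 passed in either direction, and 0 passed between treated genotypes.

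The end joining list, most of whose proteins help to join the ends cut by RAG and serve all cells, moved in both directions. In untreated knockout 4 of 13 rose and 3 fell, beside the 22.1% of all tested genes that were higher and the 23% that were lower. Lig4 (1.17 ± 0.21), the ligase, Polm (1.06 ± 0.20), a polymerase related to Dntt, Xrcc6 (0.77 ± 0.20), the Ku70 gene, and Hmgb2 (0.85 ± 0.17) rose, Lig4 having passed the filter through untreated knockout alone, while Xrcc4 (−0.84 ± 0.16), the ligase partner, Atm (−0.53) and Trp53bp1 (−0.59) fell, of which Xrcc6, Atm and Trp53bp1 were chosen here after their values were seen. With Romiplostim Lig4, Xrcc6 (−0.81) and Polm (−0.64) fell in knockout, and Hmgb2 rose in wild type (0.82, adjusted p = 0.0273). Hmgb2 was the 1 gene of this list lower in the interaction, and 0 passed between treated genotypes. The medians were 0.0949 in untreated knockout and 0.0219 for Romiplostim in knockout.

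Of the regulators of the B lineage, 11 of 11 tested rose in untreated knockout, with Irf4 below the filter. Of these, Ebf1, Pax5, Spib, Lef1, Ikzf3, Il7r and Pou2af1 passed the filter through knockout libraries alone, 6 of the 7 (all but Ebf1) through the untreated ones alone, so that a difference followed in part from the selection and the count is no support. The smallest p-values belonged to Spib (4.37 ± 0.30), Pou2af1 (5.36 ± 0.45), Ebf1 (5.04 ± 0.44) and Pax5 (2.97 ± 0.28). With Romiplostim 10 of 11 fell in knockout, Ebf1 by 3.65 and Pax5 by 2.62, and 9 of 11 were lower in the interaction. None passed in wild type or between treated genotypes. Of 6 partners of Mzb1 in the endoplasmic reticulum, Pdia4 alone rose in untreated knockout (0.50 ± 0.16, adjusted p = 0.0232) and fell with Romiplostim there (−0.74), and 0 of 6 passed in the other contrasts.

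**Figure D4:**
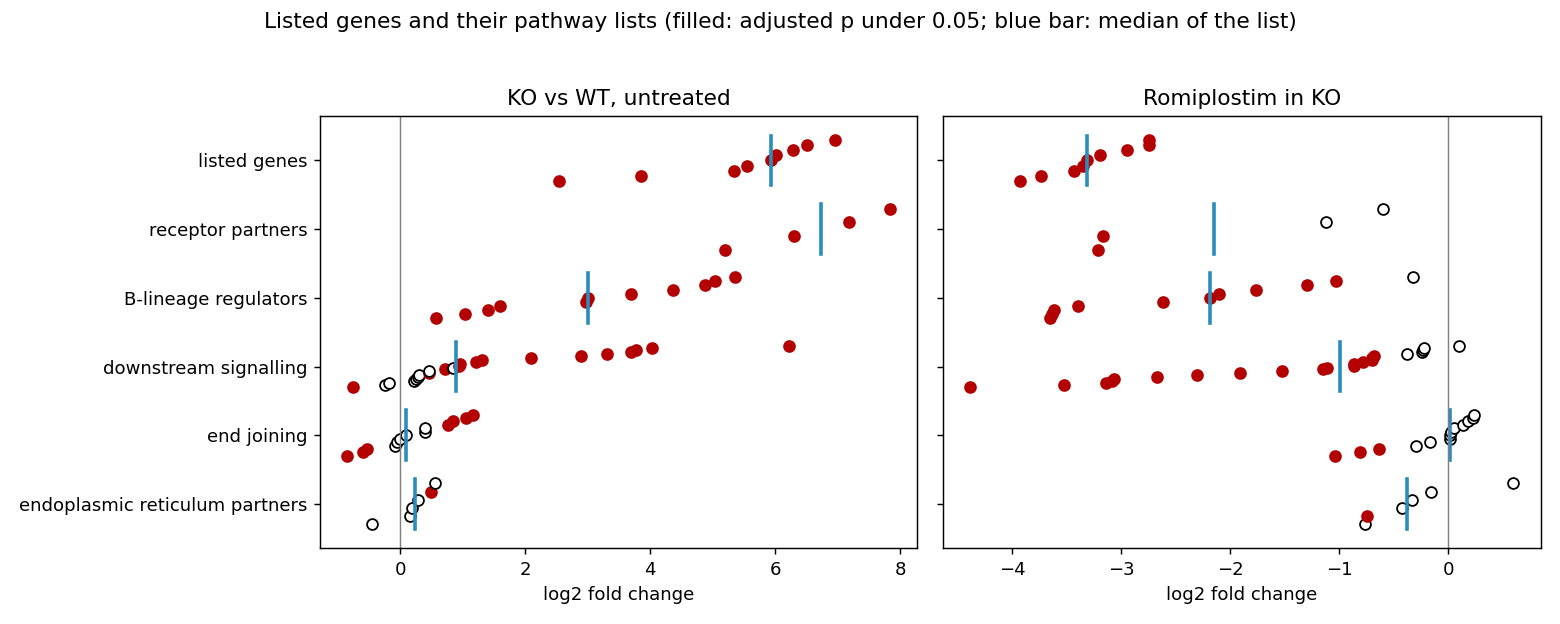
Log2 difference (horizontal axis) of each tested gene of the members and of the 5 pathway lists, for untreated knockout against wild type (left) and Romiplostim in knockout (right), 1 point per gene, filled for an adjusted p under 0.05, with a bar at the median of the list. The members (median 5.93, and −3.31 on the right) and their receptor partners lie farthest from 0, and the end joining list lies around it.

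Among the genes most like the mean profile of the 9 tested members over the 12 libraries were Slamf6 (Pearson r = 0.995), Vpreb2 (0.993), Pou2af1 (0.990), Sit1, Ifi209, Ebf1, Slamf7, Lef1 and Asb2 (0.987). Slamf6, a receptor of the SLAM family, was at 0.445 FPKM in untreated wild type, 0.409 in treated wild type, 52.2 in untreated knockout and 5.58 in treated knockout. For single members the nearest gene was Ebf1 for Blnk (0.996), Gfra1 for Rag2 (0.996), Ets1 for Cd79b (0.986) and Ifi209 for Cd79a (0.984). The 12 libraries form 4 groups, so these values mostly reflect the group means.

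Markers of several cell types moved with the members. In untreated knockout 6 of 6 tested B cell markers and 7 of 7 pro-B and pre-B markers rose, and all 13 fell with Romiplostim in knockout. All 6 of the former and 6 of the latter (all but Cd24a) passed the filter through knockout libraries alone, so that these counts follow in part from the selection. The summed B cell markers were 1.25 to 3.13 FPKM in untreated wild type, 1.24 to 1.61 in treated wild type, 245 to 1010 in untreated knockout and 6.63 to 42.6 in treated knockout, and those of pro-B and pre-B cells 130 to 217, 130 to 158, 380 to 562 and 193 to 261. Cd24a made up most of the pro-B and pre-B sum, at means of 174.2, 144.3, 358.7 and 211.5 FPKM in the same order. In wild type it was the only marker of that list with a mean of 1 FPKM or more. Pax5 was listed at 0 in all 3 treated wild-type libraries. Stem cell markers went the other way: 9 of 10 fell in untreated knockout and 8 rose with Romiplostim there. The part of these cell types in the members' differences was not tested.

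Of T cell markers 6 of 6 tested rose in untreated knockout and 2 of 6 fell with Romiplostim there. Their sums were 17.8 to 18.2 FPKM in untreated wild type, 30.9 to 33.4 in treated wild type, 89.4 to 278 in untreated knockout and 29.4 to 122 in treated knockout. Between untreated wild type and untreated knockout the mean of Cd3g went from 0.297 to 34.5 FPKM. That of Trbc1 went from 0.538 to 45.8, of Cd3d from 0.146 to 9.40 and of Cd3e from 0.0397 to 7.31. Ptcra, the pre-T cell receptor chain that marks thymocytes using RAG and Dntt, was at 0.0485 to 0.0773 FPKM in untreated knockout, at or under the level of 3 fragments. Cd8a was at most 0.224 and at 0 in all wild-type libraries. The part of T cells in the members' differences was not tested. Beyond the lymphocytes, macrophage markers (6 of 6), granulocyte and monocyte markers (9 of 10), erythroid markers (5 of 6), mast cell and basophil markers (4 of 4), plasmacytoid dendritic markers (3 of 3), stromal and endothelial markers (4 of 4), NK markers (2 of 3), lymphoid progenitor markers (3 of 6, with 1 lower) and plasma cell markers (1 of 3) also rose. In the order of groups just given, the sums were 34.4 to 51.9, 10.1 to 18.4, 726 to 2200 and 44.5 to 89.8 FPKM for macrophages. They were 1256 to 3127, 1271 to 5092, 6416 to 30490 and 2567 to 3697 for granulocytes and monocytes, and 281 to 500, 44.0 to 81.7, 962 to 5984 and 358 to 989 for erythroid cells. Stromal and endothelial sums were 9.80 to 22.2, 12 to 15, 85.8 to 436 and 9.44 to 23.8, and mast cell and basophil sums 8.63 to 10.5, 8.48 to 10.3, 49.5 to 70.2 and 8.79 to 10.6. The macrophage, granulocyte, stromal and mast cell sums of every untreated knockout library were above those of all other libraries, as for the members, and their part was not tested either. The erythroid and T cell sums overlapped between untreated and treated knockout. So did 3 further lists: plasma cell sums ran from 208 to 527 and 252 to 1665, NK sums from 234 to 306 and 145 to 305, and plasmacytoid dendritic sums from 6.63 to 12.9 and 2.46 to 12.6. Lymphoid progenitor sums were 233 to 296, 217 to 257, 266 to 805 and 94.8 to 220, so that treated knockout lay below untreated knockout while untreated knockout overlapped with untreated wild type. A single gene made up most of some of these sums, as Nkg7 did for NK cells (means of 147.6, 279.3, 269.5 and 216 FPKM). In wild type this held for Xbp1 in the plasma cell sum (254 and 380.9), Cd27 in the lymphoid progenitor sum (255.2 and 218) and Lck in the T cell sum (15.71 and 20.59). It held for Hba-a1 in the erythroid sum of untreated wild type (304.2) and for Cxcl12 in the stromal and endothelial sum of untreated knockout (183.5). Hba-a1 was at 5343 FPKM in the untreated knockout library whose erythroid sum was 5984. With Romiplostim in knockout the macrophage (6 of 6) and mast cell (4 of 4) lists fell whole, as did 8 of 10 granulocyte and monocyte, 3 of 6 erythroid, 3 of 4 stromal, 3 of 6 lymphoid progenitor and 1 of 3 plasmacytoid dendritic markers, and plasma cell and NK markers had 0 of 3 called. Of all tested genes, 22.1% were higher in untreated knockout and 18.9% lower with Romiplostim there. Without the knockout libraries 3 plasmacytoid dendritic, 3 stromal, 2 T cell and 2 macrophage markers would have missed the filter. So would 1 each of the NK, mast cell, granulocyte and monocyte, and lymphoid progenitor markers. The counts of these lists thus follow in part from the selection.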

How the data were processed

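RNA of 12 libraries was measured by paired-end sequencing of cDNA from the SMARTer Ultra Low kit, per the labels' protocols. That kit does not mark strand. The authors deposited 1 table of FPKM values per gene and library. The submitters' processing notes name TopHat2, Cufflinks 2.2.1 and the build mm10 without their roles, and the annotation release is not given in the sources used here. Identifiers were matched to GENCODE M21 on the same build, which held 34490 of the 35275 genes. Depth was estimated from the steps between low values, of which 44.3% to 52.9% per library came out as whole fragments within 0.05, so it is approximate. Floors of 3 fragments cover counting error only, because amplified copies were not collapsed by molecular identifiers.

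FPKM values were taken as log2(FPKM + 1). The 12823 genes that reached an FPKM of 1 in 3 or more libraries were fitted as 4 group means over all 12 libraries with limma 3.58.1 (R 4.3.3) and an intensity trend. Tests were two-sided, with Benjamini-Hochberg adjustment over all tested genes within each of 5 contrasts and a threshold of 0.05. A log2 difference on this scale understates the ratio of low genes. The script was tested on simulated data. An exact permutation test of 3 against 3 libraries cannot go below a p of 0.1 and was not used.

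The members and gene lists were chosen with earlier results of these data known, and the lists get counts and medians but no test of their own. The text names all members, at most 4 genes of each pathway list per contrast by smallest p, markers of cell types, and the genes of most similar pattern, with exceptions stated; 1 gene that the rule named is not reported here, although it stayed in the fits and counts. Alternatives changed the pseudocount, filter, scaling, trend, weights, libraries fitted and replicate block, or left out each replicate. A covariate for Y-linked level, 2 fits without pairs of knockout libraries, and a replicate block within wild type were added after seeing the data. The labels number the replicates without saying what a number shares. Deviations from the group means of same-numbered samples correlated at 0.123 to 0.403 between the wild-type groups. All 3 pairs were over 0.1 there, and the numbers were taken to pair the samples. In every other pair of groups at least 1 of 3 was at or below 0.1 (−0.191 to 0.19). Differently numbered wild-type samples correlated at −0.36 to 0.123, the highest for untreated replicate 2 with treated replicate 3, so the pairing is uncertain.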

Additional observations from a re-analysis of the deposited data

Results flagged for a closer look

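For 7 of the 9 tested members the difference made by Romiplostim passed as unequal in the 2 genotypes, by limma's test of the interaction over all tested genes (Romiplostim in knockout minus Romiplostim in wild type, log2 scale, adjusted p under 0.05). The values were −3.56 for Dntt (−3.43 in knockout and 0.13 in wild type), −3.23 for Blnk (−3.73 and −0.50), −2.9 for Cd79a (−3.93 and −1.03) and −2.75 for Mzb1 (−2.95 and −0.20). They were −2.58 for Rag2 (−2.74 and −0.16), −2.54 for Vpreb3 (−3.19 and −0.64) and −2.51 for Cd79b (−2.74 and −0.24). All 3 treated libraries were below all 3 untreated ones in knockout for each of these genes. Vpreb3 was the closest to the threshold, with an adjusted p of 0.0499. The wild-type levels of Dntt, Rag2, Blnk and Mzb1 were under 3 FPKM in every library, and Rag2 was tested only because the untreated knockout libraries exceeded the filter. At such levels the 1 added to each value shrinks the wild-type differences, which bears on the interaction. In wild type the untreated mean was 3.39 times the treated one for Rag2, 2.06 for Blnk, 1.23 for Mzb1 and 0.879 for Dntt. These calls changed with the processing: 0 of 9 members passed with the Y-linked level as a covariate, 2 with no filter on low values, 3 with a pseudocount of 0.1 and 2 to 9 without 1 library.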

How the results depend on the processing

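The 9 rises of members in untreated knockout kept their direction and call in 169 of 169 values, 1 per gene and refit. There were 19 refits per member, and 17 for Rag2. Genes called in all were 4560 to 5548 when 1 library was left out (5779 with all). Without 2 knockout libraries Rag2 missed the filter and the other 8 members were called. The 9 falls after Romiplostim in knockout held in 164 of 169 such values, and the other 5 were under the Y-linked covariate, which left 4 members and 1059 genes. Genes called there were 2214 to 4305 without 1 library (3797 with all), 7138 with array weights, whose estimation stopped before it converged, and 2027 with only the groups compared. In wild type 1 member fell with array weights and 2 with only the groups compared, where 0 did otherwise except in the blocked fit below, and genes called were 236, or 122 (FPKM of 5), 2488 (array weights), 611 (only the groups compared) and 62 to 117 without 1 library. Between treated genotypes 5 members were higher, against 8 with a pseudocount of 0.1, 1 with no filter, 8 with array weights, 1 with only the groups compared, 0 with the covariate and 1 to 7 without 1 library. Genes called there were 176, against 326, 57, 4327, 68 and 28 in that order, 270 with quantile normalization, 30 to 1565 without 1 library (1565 without treated knockout replicate 2), and 1755 and 1276 without 2 knockout libraries. In the interaction 7 members were lower, against 3 with a pseudocount of 0.1, 2 with no filter, 0 with the covariate and 2 to 9 without 1 library. It fell to 3 without any one untreated wild-type replicate, treated wild-type replicate 1 or 3 or untreated knockout replicate 2, to 2 without treated wild-type replicate 2, and to 4 without replicate 3 of either knockout group. Genes called there were 1996, against 6220 with array weights, 487 with the covariate and 1093 to 2687 without 1 library. The cause of these shifts was not tested. Among values that never passed the threshold, the sign turned for Mzb1 (range −0.33 to 0.0101 without 1 library, the latter without treated wild-type replicate 3) and Dntt (−0.014 to 0.32, the former without treated wild-type replicate 2) in wild type, and for Cd79b between treated genotypes (−0.41 to 0.56, the former without treated knockout replicate 2, and also −0.41 with untreated replicate 2 or 3 left out too, and −0.04 without treated knockout replicate 3).

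Replicate numbers were taken to pair only the 2 wild-type groups, from correlations in these same values. With the replicate block over all 12 libraries the members called were 9 higher in untreated knockout, 9 lower and 0 higher with Romiplostim in knockout, 0 in wild type, 7 higher between treated genotypes and 8 lower in the interaction, and the genes called were 5788, 3787, 199, 174 and 1922. With the block in the wild-type groups alone 3 members fell and 1396 genes were called, of 11938 tested. Depth limits the wild-type levels of Rag1, at 1 to 8 fragments.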
